A study of Mus musculus with 6 samples.

Results

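Cathepsins are the proteases of the lysosome and cystatins are inhibitors of a class of them. The genes described here are 8 cathepsins (Ctsa, Ctsb, Ctsc, Ctsd, Ctsh, Ctsl, Ctss and Ctsz) and 2 cystatins (Cst3 and Cst7), taken by symbol as 10 of the 20129 rows of a table of mouse gene expression. All 10 passed the filter on low values. The libraries came from microglia, the resident macrophages of the brain, sorted as live (7AAD-negative) CD45+ CD11b+ cells from the perfused brain of C57BL6/J mice aged 5 months. In 3 libraries (replicates 1, 2 and 3) the mice were Il3-/-5xFAD, which lack interleukin-3, and in the other 3 (replicates 4, 5 and 6) they were 5xFAD. Both groups carry the 5xFAD transgenes, mutant human genes driven in neurons by the Thy1 promoter that lead to amyloid plaques. Each library was a pool of 4 mice, 2 male and 2 female, so the spread between libraries is a spread between pools. No group without the transgenes was analysed here.

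Cathepsins are made as inactive precursors, carried to the lysosome largely by mannose 6-phosphate receptors, and matured there by cleavage. Ctsb, Ctsl, Ctss, Ctsz, Ctsh and Ctsc encode cysteine proteases, Ctsd encodes an aspartic protease and Ctsa a serine carboxypeptidase. Cystatins block the active site of cysteine cathepsins: cystatin C, the product of Cst3, is secreted, while cystatin F, the product of Cst7, acts inside endosomes and lysosomes. In microglia these enzymes degrade engulfed material, and Ctsb, Ctsd, Ctsl, Ctsz and Cst7 are known to be raised in microglia around plaques.

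Expression is given as CPM, the share of a library's reads that fell on a gene, per 1000000. Depth was 28160523 to 32988688 reads in Il3-/-5xFAD and 27970850 to 37605490 reads in 5xFAD. Il3, the targeted gene, had no read in any Il3-/-5xFAD library and 54, 61 and 29 reads in 5xFAD replicates 4, 5 and 6, at least 46.0-fold lower in Il3-/-5xFAD with 3 reads over the group as the floor. The 10 microglial markers were all above the filter, and their summed level was 38109 to 41646 CPM in Il3-/-5xFAD and 36436 to 38564 CPM in 5xFAD. Sums of markers of some other cells were lower in Il3-/-5xFAD: 12 neutrophil markers summed to 911 to 1469 CPM, against 1918 to 3938 CPM in 5xFAD (limma called 5 of 11 tested, edgeR with TMM 0), and 9 monocyte markers to 75.3 to 144 CPM, against 158 to 229 CPM in 5xFAD (limma called 3 of 8, edgeR 2). The 6 choroid plexus markers summed to 63.3 to 131 CPM in Il3-/-5xFAD and 182 to 517 CPM in 5xFAD (limma called 2 of 4 tested, edgeR 0). DESeq2 called 5 of the neutrophil, 5 of the monocyte and 2 of the choroid plexus markers. Over all 11900 tested genes limma called 0.882%, edgeR with TMM 0.504% and DESeq2 5.08%. Sums of B cell markers (19.6 to 23.3 CPM in Il3-/-5xFAD, 18.8 to 35.9 CPM in 5xFAD) and of dendritic cell markers (34.9 to 56.6 CPM in Il3-/-5xFAD, 52.4 to 55.6 CPM in 5xFAD) overlapped. Every one of these markers had reads in at least 1 library. In bulk RNA, fewer cells of a type and less RNA per cell cannot be told apart.

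None of the 10 genes passed the test between genotypes (limma, adjusted p under 0.05 over 11900 genes), although all 10 had a lower mean in Il3-/-5xFAD. A log2 difference below 0 was found in 50.1% of all tested genes, and in 41.1% of the 2029 with a mean of 100 CPM or more, a range that holds all 10 members. The mean was lower by 38.3% for Cst7, by 12.8% to 20.3% for Cst3, Ctsb, Ctsd, Ctsh, Ctsl, Ctss and Ctsz, by 7.2% for Ctsa and by 0.972% for Ctsc. Over all tested genes limma called 0.882%, with 0.63% lower in Il3-/-5xFAD. At an unadjusted p under 0.05, limma gave 4 of the 10 (Ctsh, Ctsl, Cst7 and Ctss), against 9.83% of all tested genes lower in Il3-/-5xFAD. Of the count tests, edgeR with TMM factors called 0 of the 10, where it called 0.504% of all genes, and DESeq2 called Ctsh and Ctss, where it called 5.08%. The median log2 difference of the 10 genes was -0.26, and that of all tested genes -0.00059, on the log2(CPM + 1) scale. Every library of Il3-/-5xFAD lay below every library of 5xFAD for 3 of the 10 (Ctsh, Ctsl and Ctss), an order found in 11.5% of all tested genes and in 12.3% of those at 100 CPM or more. The opposite order, found in 9.65% of all tested genes, held for none of the 10.

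**Figure D1:**
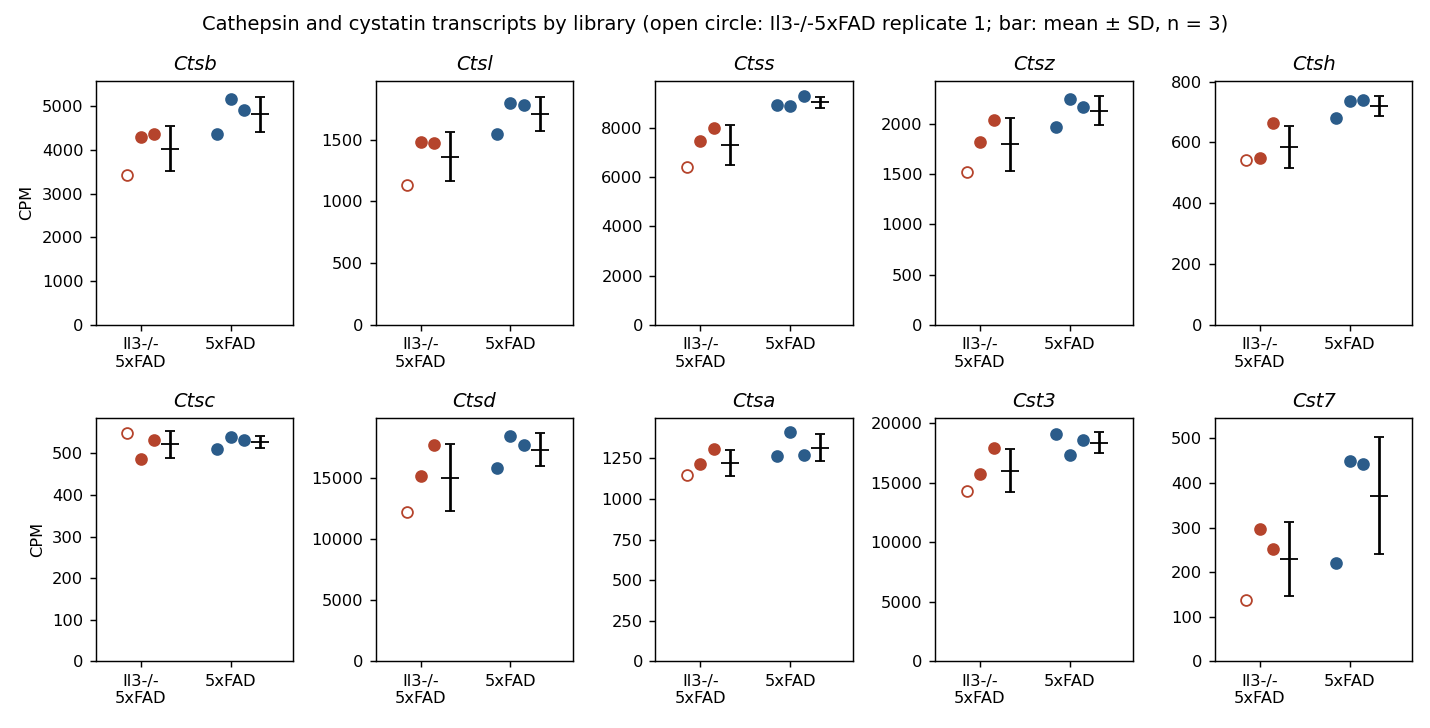
CPM (y axis, from 0) of each of the 10 genes in each library, Il3-/-5xFAD at the left and 5xFAD at the right of each panel, with the mean ± SD of 3 libraries beside the points and Il3-/-5xFAD replicate 1 as an open circle. That library is the lowest of the 6 for 9 genes and the highest for Ctsc.

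Together the 10 genes took 4.14%, 4.85% and 5.42% of all reads in Il3-/-5xFAD replicates 1, 2 and 3, against 5.44%, 5.70% and 5.74% in 5xFAD replicates 4, 5 and 6. These sums lay apart by the narrow gap between Il3-/-5xFAD replicate 3 and 5xFAD replicate 4. Cst3 and Ctsd, the largest parts of each sum, had groups that overlapped. By reads, Cst3 ranked first of all genes in every library but 5xFAD replicate 5, where Ctsd ranked first and Cst3 came next. Set per 1000 bases of the longest annotated transcript, Cst3 stood at 18591 ± 2090 CPM in Il3-/-5xFAD and 21320 ± 1032 CPM in 5xFAD (SD, n = 3 each). Ctsd followed at 7044 ± 1283 CPM per 1000 bases in Il3-/-5xFAD and 8118 ± 632 in 5xFAD, and Ctss at 5391 ± 607 in Il3-/-5xFAD and 6675 ± 164 in 5xFAD. The ranges of Ctsd and Ctss overlapped in Il3-/-5xFAD and lay apart in 5xFAD. Next in 5xFAD came Ctsz, Ctsb, Cst7, Ctsa, Ctsl and Ctsh, at 1478 to 262 CPM per 1000 bases. Of these neighbours, Cst7 and Ctsa overlapped in 5xFAD, and Ctsl and Ctsh overlapped in both groups. In Il3-/-5xFAD Cst7 stood below Ctsa, at 232 ± 84.2 against 335 ± 22.1 CPM per 1000 bases. Ctsc had the lowest mean, at 162 ± 10.1 CPM per 1000 bases in Il3-/-5xFAD and 164 ± 4.55 in 5xFAD. In Il3-/-5xFAD the range of Cst7 (139 to 302 CPM per 1000 bases) overlapped those of Ctsl, Ctsh and Ctsc. With the median length of coding transcripts in place of the longest, Cst3, Ctsd and Ctss kept the first places and Ctsc the last, but the middle of the order changed.

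The promoter windows of 4 members are shown. The first pair is Ctsd and 1 of 2 windows of Ctsa, which hold the letters CACGTG. These letters are the core of the element bound by TFEB, the regulator of lysosomal genes. Ctsl also holds CACGTG and is not printed. The second pair is Cst7 and Ctsc, the inhibitor and the enzyme at the opposite ends of the differences. Each printed window is the 250 bases before the annotated start, from RefSeq on GRCm38.p6, a later build than that of the expression table. They lie at chr7:142387828-142388077 on the minus strand (Ctsd), chr2:164833523-164833772 on the plus strand (Ctsa, the second of 2 windows), chr2:150570165-150570414 on the plus strand (Cst7) and chr7:88277835-88278084 on the plus strand (Ctsc). Capitals mark CACGTG in the first pair, and in the second pair GGAAGT or its reverse complement, a core bound by ETS factors such as PU.1. The printed Ctsa window also holds the reverse complement of GGAAGT, left in lower case. GGAAGT therefore does not separate the 2 pairs.
Ctsd: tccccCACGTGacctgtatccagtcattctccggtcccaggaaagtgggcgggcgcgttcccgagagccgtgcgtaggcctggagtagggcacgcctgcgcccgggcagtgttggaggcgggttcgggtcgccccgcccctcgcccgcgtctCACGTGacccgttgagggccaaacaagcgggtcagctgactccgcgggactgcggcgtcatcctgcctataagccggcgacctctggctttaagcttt
Ctsa: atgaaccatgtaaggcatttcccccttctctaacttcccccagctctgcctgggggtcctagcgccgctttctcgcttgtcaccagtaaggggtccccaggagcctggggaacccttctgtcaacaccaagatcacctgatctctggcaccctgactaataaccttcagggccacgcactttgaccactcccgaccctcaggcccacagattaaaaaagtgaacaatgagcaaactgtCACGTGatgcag
Cst7: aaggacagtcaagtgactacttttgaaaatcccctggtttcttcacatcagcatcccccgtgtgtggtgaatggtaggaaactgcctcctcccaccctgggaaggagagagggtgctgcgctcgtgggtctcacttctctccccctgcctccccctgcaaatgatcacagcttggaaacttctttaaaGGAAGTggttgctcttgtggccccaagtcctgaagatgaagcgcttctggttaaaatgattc
Ctsc: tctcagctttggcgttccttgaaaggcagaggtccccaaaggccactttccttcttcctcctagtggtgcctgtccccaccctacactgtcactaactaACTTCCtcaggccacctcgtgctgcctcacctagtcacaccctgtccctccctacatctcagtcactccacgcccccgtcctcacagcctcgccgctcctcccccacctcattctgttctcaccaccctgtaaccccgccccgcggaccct
Windows were used for 8 members (9 windows), not for Ctsb and Ctsh, and searched on both strands. CACGTG was present for Ctsd, Ctsl and the printed window of Ctsa, not in the other Ctsa window, and in 6.02% of the 32851 windows of all genes. The annotated start lies 288 bases inside the GENCODE transcripts that hold it for the printed Ctsa window. It lies 64 bases inside for Cst3, 48 for Ctsl and 30 for Ctsd. Any of these windows may therefore not be the bases before the first exon. For the other Ctsa window the bases after the start were not found in a GENCODE transcript of Ctsa. The longer form TCACGTG, which contains CACGTG, was present for Ctsa and Ctsd and in 3.13% of windows, and the full palindrome TCACGTGA for the same pair and in 0.785%. GGAAGT was present for Cst7, Ctsa and Ctsc (19.7% of windows), and GAGGAAGT, which contains it, for Ctsc (2.44%). GGGCGG was present for Cst3, Ctsc, Ctsd, Ctss and Ctsz (32.7%), TATAAA for Ctss (12.4%), and CATGTG for no member (12.3%). These are letter matches in short windows and show neither binding nor its absence. Of the members with CACGTG, Ctsl had groups that lay apart in expression (lower in Il3-/-5xFAD), and Ctsa and Ctsd did not. That order was found in 11.5% of all tested genes, and a link to the motif was not tested.

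Among the cysteine endopeptidases, Ctss (chromosome 3) encodes cathepsin S, which stays active at neutral pH and cuts the MHC class II invariant chain. It was at 6405, 7489 and 8019 CPM in Il3-/-5xFAD replicates 1, 2 and 3, against 8943, 8892 and 9300 CPM in 5xFAD replicates 4, 5 and 6. All Il3-/-5xFAD libraries lay below all 5xFAD libraries, and the 5xFAD libraries were close to each other (SD 2.46% of the mean). The log2 difference was -0.31 ± 0.14 (SE; 95% interval -0.62 to -0.0055; limma adjusted p = 0.294). DESeq2 on the recovered reads gave a log2 difference of -0.30 with an adjusted p of 0.0385. After a correction for transcript length, limma gave -0.18 with an adjusted p of 0.545.

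Ctsl (chromosome 13) encodes cathepsin L, a broad endopeptidase of the lysosome. It was at 1133, 1480 and 1474 CPM in Il3-/-5xFAD replicates 1, 2 and 3, against 1550, 1796 and 1779 CPM in 5xFAD replicates 4, 5 and 6. The groups lay apart, with 5xFAD replicate 4 nearest to the Il3-/-5xFAD libraries, and the log2 difference was -0.33 ± 0.12 (SE; 95% interval -0.59 to -0.07; limma adjusted p = 0.182). Ctsb (chromosome 14) encodes cathepsin B, which is both an endopeptidase and a dipeptidyl carboxypeptidase. It was at 3431, 4296 and 4378 CPM in Il3-/-5xFAD replicates 1, 2 and 3, against 4374, 5173 and 4910 CPM in 5xFAD replicates 4, 5 and 6. The groups met where Il3-/-5xFAD replicate 3 passed 5xFAD replicate 4, and the log2 difference was -0.26 ± 0.13 (SE; limma adjusted p = 0.361).

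Ctsh, Ctsz and Ctsc encode exopeptidases. Ctsh (chromosome 9), whose product cathepsin H trims proteins from their amino end, was at 542, 547 and 664 CPM in Il3-/-5xFAD replicates 1, 2 and 3, against 681, 737 and 739 CPM in 5xFAD replicates 4, 5 and 6. The groups lay apart, and Ctsh had the lowest p of the 10 (log2 difference -0.30 ± 0.10 (SE); 95% interval -0.51 to -0.10; limma adjusted p = 0.132). DESeq2 gave Ctsh an adjusted p of 0.0490, limma with array weights 0.0178 and limma without Il3-/-5xFAD replicate 3 0.0300. Those 3 settings called 5.08%, 8% and 4.99% of all tested genes. Ctsz (chromosome 2), whose product cathepsin X removes single residues from the carboxyl end, was at 1526, 1819 and 2044 CPM in Il3-/-5xFAD replicates 1, 2 and 3, against 1969, 2250 and 2171 CPM in 5xFAD replicates 4, 5 and 6. Its groups overlapped by 1 library on each side, and the log2 difference was -0.25 ± 0.12 (SE; limma adjusted p = 0.315).

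Ctsc (chromosome 7) encodes cathepsin C, a dipeptidyl peptidase that activates the serine proteases of granules in neutrophils, mast cells and cytotoxic lymphocytes. It was at 548, 486 and 532 CPM in Il3-/-5xFAD replicates 1, 2 and 3, against 511, 539 and 532 CPM in 5xFAD replicates 4, 5 and 6. Both the highest and the lowest library were Il3-/-5xFAD. The log2 difference was -0.02 ± 0.08 (SE; limma adjusted p = 0.948), with a 95% interval of -0.19 to 0.16, and it was above 0 in 4 of the 21 alternative settings.

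The 2 enzymes outside the cysteine class had wide intervals or small differences. Ctsd (chromosome 7), which encodes the main aspartic protease of the lysosome, was at 12203, 15088 and 17655 CPM in Il3-/-5xFAD replicates 1, 2 and 3, against 15770, 18366 and 17667 CPM in 5xFAD replicates 4, 5 and 6. Il3-/-5xFAD replicate 1 lay far below the rest and replicate 3 lay within the 5xFAD range. The log2 difference was -0.22 ± 0.19 (SE; 95% interval -0.62 to 0.19; limma adjusted p = 0.606). Ctsa (chromosome 2), whose product cathepsin A also shields beta-galactosidase and neuraminidase from degradation, was at 1144, 1215 and 1305 CPM in Il3-/-5xFAD replicates 1, 2 and 3, against 1261, 1414 and 1272 CPM in 5xFAD replicates 4, 5 and 6. The groups overlapped and the log2 difference was -0.11 ± 0.09 (SE; limma adjusted p = 0.610).

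Both cystatin genes lie on chromosome 2. Cst3 was at 14324, 15747 and 17893 CPM in Il3-/-5xFAD replicates 1, 2 and 3, against 19087, 17356 and 18563 CPM in 5xFAD replicates 4, 5 and 6. Il3-/-5xFAD replicate 3 lay within the 5xFAD range, and the log2 difference was -0.20 ± 0.17 (SE; 95% interval -0.58 to 0.17; limma adjusted p = 0.606). This difference was 0.02 after a correction for transcript length. Quantile normalization gave 0.04, a value set by rank alone, since Cst3 ranked first in every library but 5xFAD replicate 5. That value does not measure a difference in level. Cst7 was at 137, 298 and 253 CPM in Il3-/-5xFAD replicates 1, 2 and 3, against 221, 450 and 443 CPM in 5xFAD replicates 4, 5 and 6. Each group held 1 library well below its other 2, and 5xFAD replicate 4 lay below 2 Il3-/-5xFAD libraries. The SD was 36.2% of the mean in Il3-/-5xFAD and 35.2% in 5xFAD, the widest of the 10 genes, and the log2 difference was -0.70 ± 0.29 (SE; 95% interval -1.32 to -0.07; limma adjusted p = 0.2502). A lower log2 difference than that of Cst7 was found in 3.88% of all tested genes.

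Il3-/-5xFAD replicate 1 was the lowest of the 6 libraries for all members but Ctsc, for which it was the highest. Without it the log2 differences ran from -0.36 (Cst7) to -0.05 (Ctsc), with a median of -0.14, and limma called none of the 10. The values of Ctsa, Ctsb, Ctsd, Ctsl, Ctsz, Cst3 and Cst7 with all libraries were 1.60 to 2.78 times as large as without that library, while Ctsh and Ctss stood at -0.25 and -0.22 without it. Replicate 1 also had the most genes with a read (17245), and within its group the highest sum of monocyte markers (144 CPM). Its neutrophil marker sum of 1469 CPM was near the 1463 CPM of replicate 3. Its microglial marker sum of 41164 CPM was near that of replicate 3. The part of these features in the members' values was not tested.

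**Figure D2:**
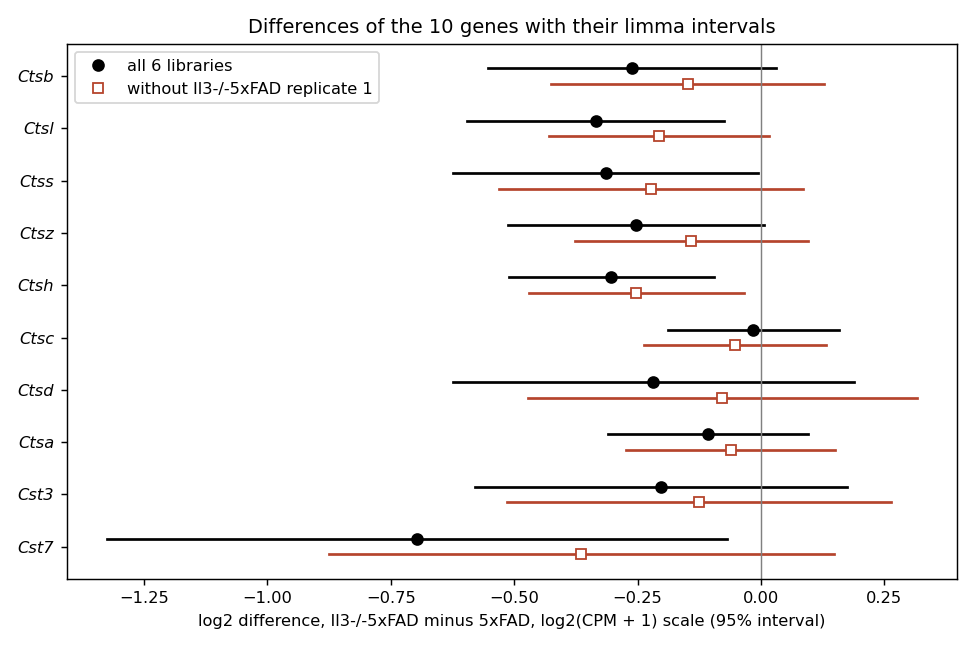
Log2 difference (x axis, Il3-/-5xFAD minus 5xFAD on the log2(CPM + 1) scale) with its 95% interval for each gene, with all 6 libraries (filled circles) and without Il3-/-5xFAD replicate 1 (open squares). Leaving that library out brings every gene but Ctsc nearer to 0, Ctsb to -0.15 and Cst7 to -0.36.

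With the mean level of the neutrophil markers as a covariate, the members' log2 differences ran from -0.76 to 0.13, and with the monocyte markers from -0.94 to 0.18, with Ctsc the highest in both. No member passed in either fit. These covariates shared 64.2% and 76.9% of their variance with genotype, and the SE of Cst7, for example, was 0.48 and 0.59 there.

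Ratios within a library do not depend on its scaling. Ctsd over Ctsb, the aspartic against a cysteine enzyme, was 3.56, 3.51 and 4.03 in Il3-/-5xFAD replicates 1, 2 and 3, against 3.61, 3.55 and 3.60 in 5xFAD replicates 4, 5 and 6. The 2 enzymes thus kept nearly the same proportion in all libraries but Il3-/-5xFAD replicate 3. Cst3 over Ctsb was 4.17, 3.67 and 4.09 in Il3-/-5xFAD against 4.36, 3.35 and 3.78 in 5xFAD, and these overlap. Cst7 over Ctsc, the inhibitor against one of its known targets, was 0.249, 0.613 and 0.475 in Il3-/-5xFAD, against 0.432, 0.836 and 0.833 in 5xFAD. The ratio averaged 0.446 ± 0.183 in Il3-/-5xFAD and 0.700 ± 0.232 in 5xFAD (SD, n = 3 each), with overlap through 5xFAD replicate 4. Cst7 over Cst3 averaged 0.0142 ± 0.00468 in Il3-/-5xFAD and 0.0205 ± 0.00778 in 5xFAD (SD, n = 3 each), and overlapped likewise. The ratios are given as a description with no test; an exact two-sided permutation test of 3 against 3 libraries cannot give a p below 0.1.

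**Figure D3:**
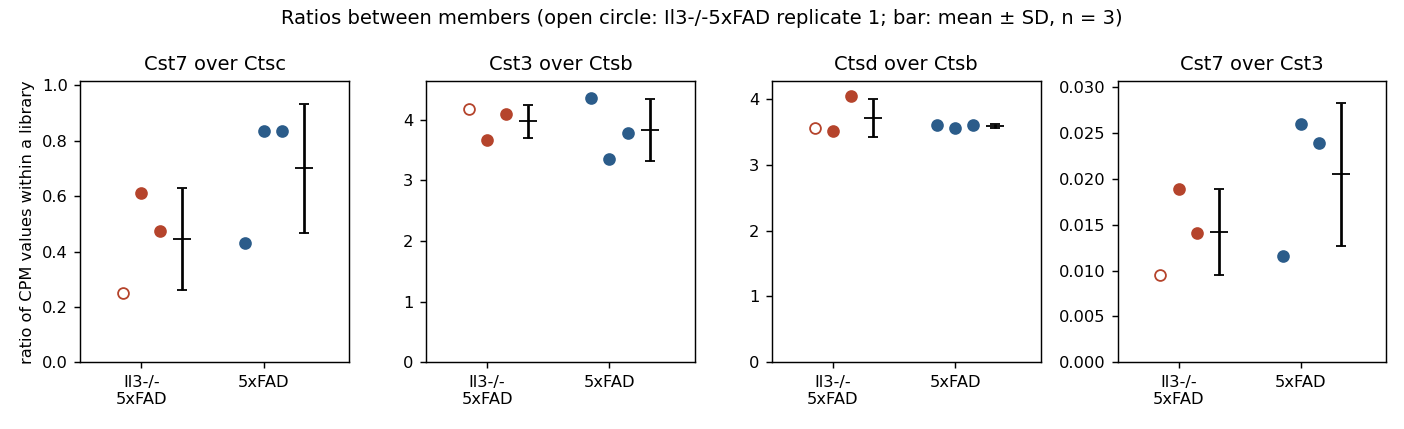
Ratio of the CPM values of 2 genes within each library (y axis, from 0), Il3-/-5xFAD at the left and 5xFAD at the right of each panel, with mean ± SD of 3 libraries and Il3-/-5xFAD replicate 1 as an open circle. Cst7 over Ctsc ranges from 0.249 to 0.836 while Ctsd over Ctsb stays between 3.51 and 4.03.

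The other cathepsins in the table were few and low, apart from Ctsf and Ctso, both cysteine enzymes. Of 15 listed, 6 were in the table and 4 were tested, and limma called none (1 at an unadjusted p under 0.05, 0 by edgeR with TMM and 1 by DESeq2). Over all 11900 tested genes, 1966 had an unadjusted limma p under 0.05 in either direction. Called were 0.882% by limma, 0.504% by edgeR with TMM and 5.08% by DESeq2. These shares are also the background for the lists that follow. Ctsf was at 257, 240 and 292 CPM in Il3-/-5xFAD replicates 1, 2 and 3, against 266, 250.5 and 243 CPM in 5xFAD replicates 4, 5 and 6, and Ctso at 128 to 136 CPM in Il3-/-5xFAD against 123 to 129 CPM in 5xFAD. Their log2 differences of 0.05 ± 0.09 and 0.05 ± 0.08 (SE) had the opposite sign to those of the 10 members. The DESeq2 call was Ctsw, the cathepsin of NK and cytotoxic T cells, named after its values were seen. It was at 10.4, 12.4 and 7.15 CPM in Il3-/-5xFAD, against 15.3, 17.1 and 28.2 CPM in 5xFAD (log2 difference -0.93 ± 0.24 (SE), limma adjusted p = 0.0823). The 10 T and NK cell markers moved with it, summing to 42.5 to 57.4 CPM in Il3-/-5xFAD and 86.8 to 154 CPM in 5xFAD, and their part in its level was not tested.

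Of the other cystatins, stefins and related inhibitors, 11 of 22 were in the table and 3 were tested, none called by limma, edgeR with TMM or DESeq2 (1 at an unadjusted p under 0.05). Cstb, the cytosolic inhibitor stefin B, was at 24.1 to 36.8 CPM in Il3-/-5xFAD and 29.9 to 40.5 CPM in 5xFAD, and Ctla2b, which resembles a cathepsin propeptide, at 12.4 to 21.4 CPM in Il3-/-5xFAD and 15.5 to 20.8 CPM in 5xFAD. Their log2 differences were -0.14 ± 0.16 and -0.14 ± 0.20 (SE). Ctla2a, named after its values were seen, was at 2.45, 3.59 and 5.34 CPM in Il3-/-5xFAD replicates 1, 2 and 3, against 6.33, 7.38 and 8.78 CPM in 5xFAD replicates 4, 5 and 6 (log2 difference -0.86 ± 0.25 (SE), limma adjusted p = 0.109). Its groups lay apart, and it was the gene with an unadjusted p under 0.05. The other 8 were below the filter.

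Genes for the sorting and maturation of lysosomal enzymes had differences on both sides of 0. Of 14 tested, limma called none (2 at an unadjusted p under 0.05, 0 by edgeR with TMM and 1 by DESeq2), 9 were below 0 and 5 above, and the median log2 difference was -0.02. Psap, the saposin precursor, was at 4711, 4847 and 5466 CPM in Il3-/-5xFAD replicates 1, 2 and 3, against 5353, 5794 and 5728 CPM in 5xFAD replicates 4, 5 and 6. Lgmn, which encodes legumain, a protease that processes cathepsins, was at 4151, 3865 and 4567 CPM in Il3-/-5xFAD against 4377, 4236 and 4052 CPM in 5xFAD, with a log2 difference of -0.01 ± 0.12 (SE). Il3-/-5xFAD replicate 1 was the lowest library for Psap, Grn, Glb1 and Gnptg, but not for Lgmn or the other tested genes of the list. The transcription factor gene Tfeb had a log2 difference of -0.01 ± 0.09 and M6pr, the smaller mannose 6-phosphate receptor, -0.10 ± 0.08. The DESeq2 call was Igf2r, the larger of the receptors, at 6.01, 3.09 and 5.67 CPM in Il3-/-5xFAD and 8.97, 11.1 and 13.9 CPM in 5xFAD (-1.08 ± 0.24 (SE), limma adjusted p = 0.0611). Tfeb, M6pr, Igf2r, Grn, Glb1 and Gnptg were named after their values were seen.

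The granule proteases that cathepsin C activates were at low levels. Of 10 listed, 5 were tested and limma called none (4 at an unadjusted p under 0.05, 0 by edgeR with TMM and 2 by DESeq2, Elane and Prtn3). Elane and Prtn3 are also among the 4, and both reached 1 CPM in the 5xFAD libraries alone. They passed the filter only through 5xFAD, so a lower level in Il3-/-5xFAD was fixed in advance. Their calls are therefore no support for a difference. Gzmb was at 12.2 to 15.2 CPM in Il3-/-5xFAD and 18.6 to 22.4 CPM in 5xFAD, and Gzma at 4.63 to 6.55 CPM in Il3-/-5xFAD and 7.26 to 10.5 CPM in 5xFAD. Elane, the neutrophil elastase, was at 0.336, 0.107 and 0.0303 CPM in Il3-/-5xFAD replicates 1, 2 and 3, against 1.18, 17.8 and 4.15 CPM in 5xFAD replicates 4, 5 and 6, so that replicate 5 held most of it. Elane and Prtn3 were named after their values were seen. In the MHC class II list of cathepsin S, all 6 genes were below 0, against 50.1% of all tested genes. Limma called none (5 at an unadjusted p under 0.05, 0 by edgeR with TMM and 0 by DESeq2). Over all 11900 tested genes, 1966 had an unadjusted limma p under 0.05 in either direction. Cd74, the invariant chain that cathepsin S cuts, was at 671, 393 and 449 CPM in Il3-/-5xFAD, against 719, 898 and 910 CPM in 5xFAD, and H2-Ab1, a class II beta chain gene, at 287, 149 and 176 CPM in Il3-/-5xFAD against 315, 363 and 371 CPM in 5xFAD. Here Il3-/-5xFAD replicate 1 was the highest of its group, whereas it was the lowest for Ctss. The log2 differences of these 2 genes were -0.77 ± 0.17 and -0.83 ± 0.18 (SE; limma adjusted p = 0.0543 and 0.0580).

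**Figure D4:**
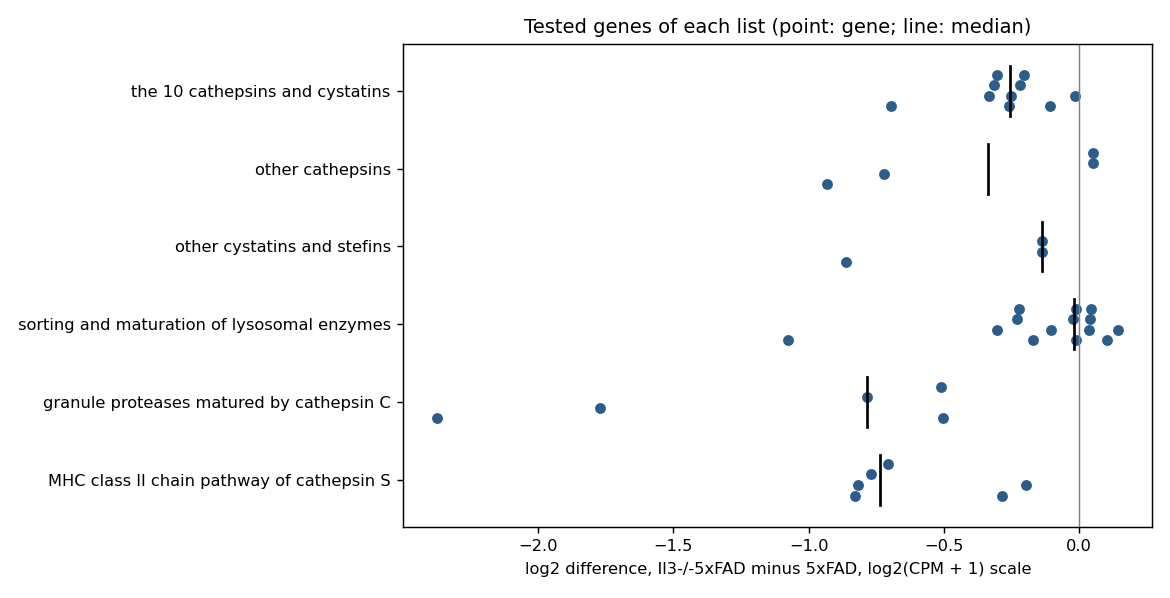
Log2 difference (x axis, Il3-/-5xFAD minus 5xFAD on the log2(CPM + 1) scale) of each tested gene, 1 row per list, with the median of each list as a line. The 10 cathepsins and cystatins have a median of -0.26 and the sorting and maturation list -0.02.

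The genes whose levels ran most like those of a member across the 6 libraries are given as a description by Pearson's r of log2(CPM + 1) among 3977 other genes averaging 50 CPM or more. All such values share the same 6 libraries, and r includes the difference between the groups. Ctsb and Ctsl had the same 2 nearest genes, Cox8a and Dad1 (r of 0.983 to 0.994). Ctss ran with the ribosomal protein genes Rps12 and Rps14, Ctsz with Rpl35 and Tyrobp, the adaptor of TREM2, and Ctsh with Pcbp2 and Rpl31 (0.990 to 0.997). Ctsd ran with Plbd2 and 2400001E08Rik, Ctsa with Nsa2 and Slc25a39, Cst3 with Atp6v1g1 and Eif1b, and Cst7 with Ly6e and Ank (0.984 to 0.998). The nearest genes of Ctsc, Nptn and Rab31, were at 0.961 and 0.960, the lowest of the 10 genes.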

How the data were processed

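The authors deposited CPM (counts per 1000000 reads) for 20129 genes in 6 libraries. Tools named in the submitters' processing notes are STAR, HTSeq and edgeR, with the build mm9 and no versions or roles. Annotation, counting mode and filters: not given in the sources used here. Per the labels' protocols the libraries were polyA-selected and directional. Every value was a whole multiple of 1 read (100% within 0.01 reads), so reads were recovered, and 1 read was worth 0.0266 to 0.0358 CPM. No 2 libraries of a group agreed within sampling noise (chi-square over degrees of freedom of 22.1 or more).

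The 11900 genes that reached 1 CPM in 3 or more libraries were tested with limma 3.58.1 (trend, two-sided) in R 4.3.3 on log2(CPM + 1), as Il3-/-5xFAD minus 5xFAD. P-values were adjusted over all of them by Benjamini-Hochberg, with a threshold of 0.05. Fold changes of low genes are understated on this scale. As alternatives on the recovered reads, the quasi-likelihood test of edgeR 4.0.16 with TMM called 60 genes and DESeq2 1.42.0 called 605. Other alternatives were the pseudocount, the filter, the scaling, the variance model, library weights, 2 covariates, a length correction and leaving out each library. The limma fit was checked on simulated data. Groups and replicate numbers came from the sample titles, and the groups share no number.

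The members and lists were chosen with earlier results of these data known. All 10 members were named; in other lists up to 4 called genes or else the 2 most abundant, with exceptions marked. Transcript lengths were those of GENCODE M21 (GRCm38) for 19479 genes. Of the stretches of 50 bases in GENCODE transcripts of Ctsd, 32.4% also occur in Gm49369, and 6.46% of those of Ctsl occur in other genes, chiefly Gm49230; neither of those is a row of the table, and the other 8 members shared at most 0.448%.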

Additional observations from a re-analysis of the deposited data

How the results depend on the processing

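Of the 210 values of single members under 21 alternatives, 200 kept their sign and stayed above an adjusted p of 0.05 and 4 passed it in the same direction (Ctsh in 3, Ctss in 1). The other 6 changed sign. Cst3 was at 0.024 with the length correction and 0.041 with quantile normalization, the latter a value set by rank alone. Ctsc was at 0.18 with the monocyte covariate and 0.13 with the neutrophil covariate. Ctsc was also at 6.12e-05 to 0.035 when 5xFAD replicate 5 or Il3-/-5xFAD replicate 2 was left out (all 6 libraries left out in turn: -0.052 to 0.035). Apart from Cst3 with quantile normalization, the cause of these changes was not tested. DESeq2 called 2 members, array weights 1, and leaving out 1 library 0 to 1. The members' median log2 difference was -0.38 with the monocyte covariate and -0.18 with the length correction. Without 1 library it ran from -0.35 (without Il3-/-5xFAD replicate 3) to -0.14 (without Il3-/-5xFAD replicate 1).

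Over all genes, the 105 calls became 605 with DESeq2, 952 with array weights, 60 and 69 with edgeR (TMM and library totals), 57 with the length correction, 68 both with a filter on a mean of 5 CPM and with median-ratio rescaling, 3 and 6 with the monocyte and neutrophil covariates, 8 with no filter, 10 without the variance trend, and 11 (without 5xFAD replicate 6) to 587 (without Il3-/-5xFAD replicate 3) without 1 library. Array weights called 1 of the other cathepsins, 1 of the other cystatins, 1 sorting gene, 2 granule proteases and 5 MHC class II genes. DESeq2 called 1 other cathepsin, 1 sorting gene and 2 granule proteases, and edgeR with library totals called 1 granule protease. The 2 granule proteases of DESeq2 passed the filter only through 5xFAD. Without 1 library, 0 to 1 of the other cystatins, 0 to 1 sorting gene and 0 to 4 MHC class II genes were called (4 without Il3-/-5xFAD replicate 1).

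The log2 ratio differences ran, without 1 library, from -1.0 to -0.31 for Cst7 over Ctsc, -0.87 to -0.24 for Cst7 over Cst3, -0.03 to 0.16 for Cst3 over Ctsb and -0.02 to 0.08 for Ctsd over Ctsb. With the median length of coding transcripts, 4 of the 10 members kept their place in the order of levels. No paired analysis was possible because the groups share no replicate number. The 95% intervals rest on 3 pools per group and included 0 for 6 of the 10 members, each of which had at least 4073 reads in every library.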
